A study of Mus musculus with 12 samples.

Results

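The insulin-like growth factor (IGF) system was followed in cultured mouse mammary fibroblasts after doxorubicin or hydrogen peroxide. Its 10 genes were taken by symbol from the 55487 genes of the deposited table: the ligands Igf1 and Igf2, the receptors Igf1r and Igf2r, and the binding proteins Igfbp2, Igfbp3, Igfbp4, Igfbp5, Igfbp6 and Igfbp7. RNA sequencing gave 12 libraries in 4 groups of 3. Doxorubicin, a topoisomerase poison that breaks DNA, was given at 100 nM for 24 h, and these cells were harvested on day 7. Their vehicle group received water and was also harvested on day 7. Hydrogen peroxide, an oxidant, was given at 750 uM for 2 h in each of 3 exposures, with 48 h for the cells to recover, and these cells were harvested on day 6. Their vehicle group, again water, was harvested on day 6 as well. For the doxorubicin group and its vehicle the labels give a medium refresh interval of 3 days, and they give no such value for the peroxide groups. All groups came from 1 primary fibroblast line of a healthy B6 mouse, so the data describe a single line. The vehicle groups were passaged to hold their density, and the labels mention no passaging of treated cells, so treatment and culture history cannot be told apart. The labels do not say whether the libraries of a group were separate cultures, and p-values therefore measure only the spread between these libraries.

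IGF1 and IGF2 are secreted growth factors that act through the receptor tyrosine kinase encoded by Igf1r, whereas the receptor encoded by Igf2r takes up IGF2 for degradation and also carries lysosomal enzymes. The IGF binding proteins hold the ligands outside the cell, and proteases such as pappalysin release the ligand by cutting its carrier. In the mammary gland, stromal fibroblasts are a known local source of IGF1, and binding proteins are recurrent components of the secretions of senescent cells.

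The sequences before the transcription starts of 4 genes are shown because these genes had large changes on the log2(CPM + 1) scale used below, or opposite changes between treatments: Igfbp5, Igfbp3, Igf1 and Igfbp4. Each run is the 250 bases before the first listed start in RefSeq (GRCm38.p6), read 5′ to 3′ on the strand of the gene. The windows are chr1:72874866-72875115 (minus strand) for Igfbp5, chr11:7213924-7214173 (minus) for Igfbp3, chr10:87860861-87861110 (plus) for Igf1 and chr11:99040994-99041243 (plus) for Igfbp4. The RefSeq starts of Igf1 and Igfbp5 lie inside the GENCODE models of these genes, and those of Igfbp3 and Igfbp4 at the edge of theirs. Capitals mark a match to 1 of 6 motifs searched on both strands.
Igfbp5: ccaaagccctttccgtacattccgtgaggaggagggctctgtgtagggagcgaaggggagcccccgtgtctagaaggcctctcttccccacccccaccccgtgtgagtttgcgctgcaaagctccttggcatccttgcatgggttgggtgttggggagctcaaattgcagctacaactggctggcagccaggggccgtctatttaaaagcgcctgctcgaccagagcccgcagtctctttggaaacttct
Igfbp3: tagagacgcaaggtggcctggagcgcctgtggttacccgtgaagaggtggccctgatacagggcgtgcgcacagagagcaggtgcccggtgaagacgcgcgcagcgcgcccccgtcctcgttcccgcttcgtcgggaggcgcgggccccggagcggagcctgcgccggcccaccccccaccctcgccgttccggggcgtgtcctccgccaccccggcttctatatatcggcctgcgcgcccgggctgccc
Igf1: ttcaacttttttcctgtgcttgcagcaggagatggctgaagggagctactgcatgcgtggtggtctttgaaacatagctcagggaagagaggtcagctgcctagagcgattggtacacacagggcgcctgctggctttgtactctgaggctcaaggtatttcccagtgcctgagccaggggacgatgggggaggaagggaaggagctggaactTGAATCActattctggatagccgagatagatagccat
Igfbp4: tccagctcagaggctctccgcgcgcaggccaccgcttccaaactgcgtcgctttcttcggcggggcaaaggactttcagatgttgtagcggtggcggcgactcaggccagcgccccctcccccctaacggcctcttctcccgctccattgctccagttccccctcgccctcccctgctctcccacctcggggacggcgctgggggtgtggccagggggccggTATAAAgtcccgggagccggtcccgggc
The motifs were the TATA box (TATAAA), the GC box (GGGCGG), the AP-1 site (TGANTCA), the interferon-stimulated response element, a FOXO site (GTAAACA) and the E-box (CACGTG). Igf1 held an AP-1 site 37 to 31 bases before the start, a motif present in 6.75% of all 32851 RefSeq promoter windows of the same length. Igfbp4 held a TATA box 28 to 23 bases before the start, which 12.4% of windows hold. The windows of Igfbp5 and Igfbp3 held none of the 6 motifs. The Igfbp3 window was 73.2% G and C, against a median of 52.4% over all windows. Of the other members, Igf2, Igf1r, Igf2r, Igfbp2 and Igfbp7 held GC boxes in at least 1 window, and 32.7% of all windows held a GC box. Igf2 and Igfbp2 have more than 1 window each, so this count by gene and the share of windows are unlike measures. Igf2r and Igfbp2 also held E-boxes, which 6.02% of windows hold, and another Igfbp2 window held an AP-1 site. The Igfbp6 window held a TATA box on the opposite strand, 148 to 143 bases before the start.

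Values are CPM, counts per 1000000 counted reads, and depth, read from the step between values, was 17.3 to 37.6 M reads per library, where 1 M is 1000000. On the second principal component of all tested genes, 3 libraries stood apart from the others of their groups: doxorubicin replicate 1, doxorubicin vehicle replicate 3 and peroxide replicate 2. All 9 fibroblast markers, among them the collagen gene Col1a1 and Dcn, which encodes decorin, were detected, and their summed level ran from 7037 to 14245 CPM per library. The 7 epithelial markers summed to 18.2 to 184 CPM, and Krt19 was the only one of them that passed the filter on low values. Levels of the other marker lists were at most 144 CPM in sum. In bulk RNA, fewer cells of a kind and less RNA per cell cannot be told apart. Differences were tested with limma on log2(CPM + 1) for the 13280 genes that reached 1 CPM in 3 or more libraries. Benjamini-Hochberg adjustment of p ran over all 13280 genes, and a gene is said to have changed at an adjusted p below 0.05. Each fold change below is therefore a difference on the log2(CPM + 1) scale, given with its standard error, unless it is named as a ratio of mean CPM.

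Of the 10 genes, 9 passed the filter, and Igfbp2 did not. After doxorubicin 7 of these 9 rose (Igf1, Igf2, Igf1r, Igf2r, Igfbp3, Igfbp6 and Igfbp7) and Igfbp4 fell, where 22.1% of all tested genes rose and 27.8% fell. After peroxide 7 of the 9 rose (Igf1, Igf2, Igf2r, Igfbp3, Igfbp4, Igfbp5 and Igfbp7) and none fell (0 of 9), where 27.3% of all tested genes rose and 23.4% fell. Igf2 and Igfbp3 passed the filter through their treated libraries alone, so their calls are a description. The counts over the 9 tested genes are likewise a description and not a measure of how often the system responded. The effects of the treatments differed for 5 of the 9 genes, against 33.6% of all tested genes. This called difference, doxorubicin effect minus peroxide effect, was positive for 13.5% and negative for 20.1% of all tested genes. These were 1796 and 2665 genes, or 2092 and 1998 with median-of-ratios scaling. Among the 5 members it was positive for Igf1, Igfbp3 and Igfbp6, and negative for Igfbp4 and Igfbp5. A negative sign also covers a gene that fell more after doxorubicin. The vehicle groups themselves differed for Igfbp4 and Igfbp5, both higher on day 7. Of all tested genes 28.0% differed there, 15.1% higher and 12.9% lower on day 7. The median difference over all tested genes was -0.03 after doxorubicin and -0.01 after peroxide. Without the 3 libraries that stood apart, the counts were 7 higher and 1 lower after doxorubicin, and 8 higher and 0 lower after peroxide, and the effects differed for 4 genes, 2 in each direction.

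**Figure D1:**
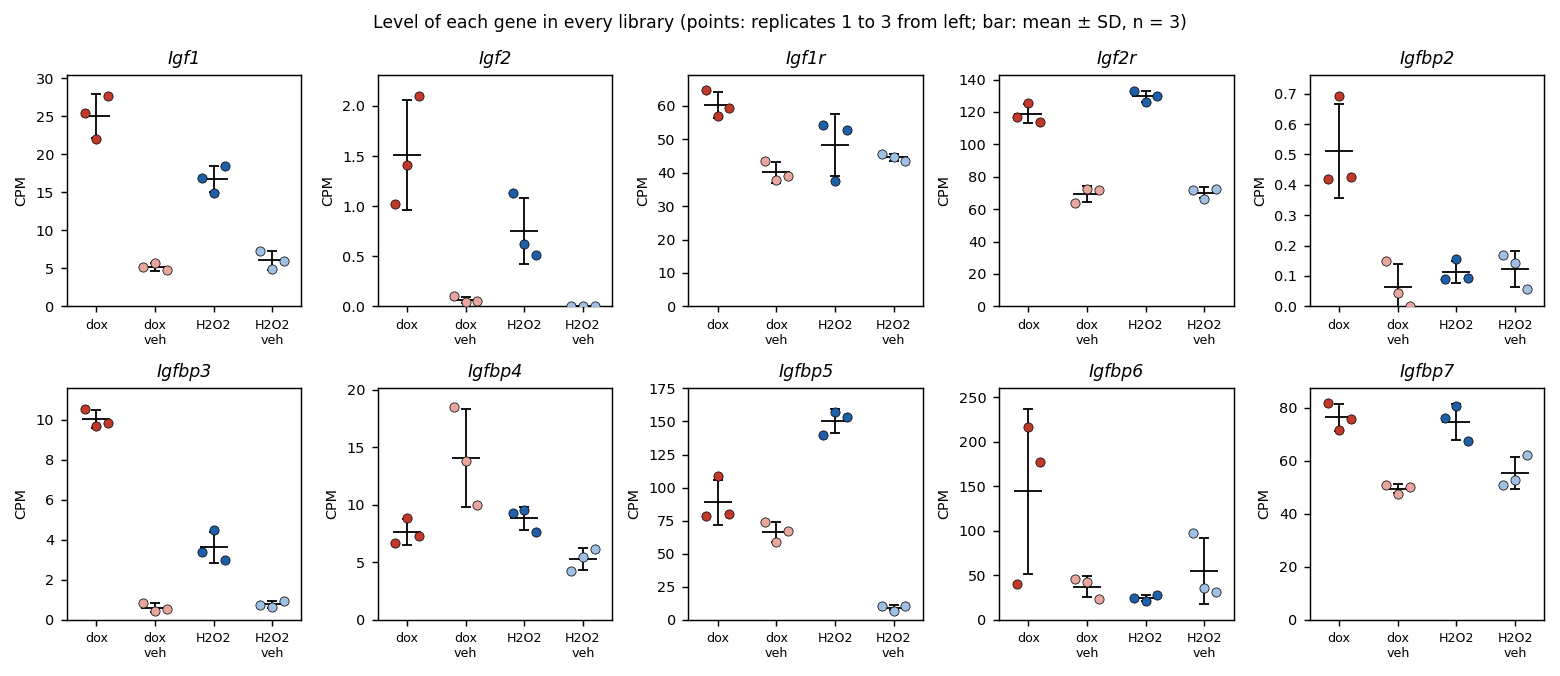
CPM of each of the 10 genes in every library; points are replicates 1 to 3 from left to right within a group, and the horizontal bar with whiskers is the mean ± SD (n = 3). The doxorubicin and peroxide libraries lie above their vehicle libraries for Igf1, Igf2, Igf2r, Igfbp3, Igfbp5 and Igfbp7. Of all tested genes, 26.1% had doxorubicin libraries wholly above their vehicle libraries, and 30.7% had peroxide libraries wholly above theirs. The peroxide vehicle libraries lie far below all others for Igfbp5.

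The ligand genes rose after both treatments. Igf1 (ENSMUSG00000020053, chromosome 10, 87858265 to 87937042, plus strand, mm10) encodes the growth factor itself. It was at 25.4, 22.0 and 27.7 CPM in the doxorubicin libraries, against 5.13, 5.74 and 4.72 CPM in their vehicle libraries. In the peroxide libraries it was at 16.8, 15.0 and 18.5 CPM, against 7.33, 4.86 and 6.01 CPM in their vehicle libraries. Every treated library exceeded every vehicle library, and the vehicle groups overlapped. The ratio of mean CPM was 4.81 after doxorubicin and 2.76 after peroxide. On the log2 scale Igf1 rose by 2.07 ± 0.14 after doxorubicin (limma, adjusted p = 6.19e-07) and by 1.34 ± 0.14 after peroxide (adjusted p = 1.79e-05). The doxorubicin effect exceeded the peroxide effect by 0.73 ± 0.20 (adjusted p = 0.0204). That difference was not called without the 3 libraries that stood apart (adjusted p = 0.0786) or without doxorubicin replicate 3 (adjusted p = 0.0535).

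Igf2 (ENSMUSG00000048583, chromosome 7, 142650766 to 142666816, minus strand) is an imprinted growth factor gene of fetal tissues. It was scarce throughout, at 1.02, 1.41 and 2.10 CPM in the doxorubicin libraries and 0.0987, 0.0456 and 0.0513 CPM in their vehicle libraries, which is 1 or 2 reads each. The peroxide libraries held 1.13, 0.618 and 0.514 CPM, and their vehicle libraries held 0 CPM each. A floor of 3 reads corresponds to 0.0798 to 0.173 CPM per library, so all 6 vehicle libraries were under the floor and all 6 treated libraries above it. Since only treated libraries carried Igf2 past the filter, its calls are a description. Igf2 rose by 1.22 ± 0.16 after doxorubicin (adjusted p = 0.000108) and by 0.79 ± 0.16 after peroxide (adjusted p = 0.00196). These values depend on the CPM added before taking logs: with 0.1 in place of 1 they were 3.25 and 3.03, with 2 they were 0.75 and 0.45, and voom on estimated reads gave 4.14 and 4.75. The difference between the effects was 0.42 with a 95% interval of -0.09 to 0.93 (adjusted p = 0.179). Its values are uncertain, since 61.2% of its 50-base windows also occur in Gm49394, an overlapping gene model that was listed at 0.

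The noncoding RNA gene H19, which lies beside Igf2 in the same imprinted domain, was higher with it. H19 was at 13.2 ± 2.58 CPM in the doxorubicin group and 0.0608 ± 0.105 CPM in its vehicle group, and at 6.88 ± 1.19 CPM in the peroxide group and 0.0963 ± 0.167 CPM in its vehicle group (SD, n = 3). It rose by 3.73 ± 0.18 (adjusted p = 2.79e-08) and by 2.84 ± 0.18 (adjusted p = 2.45e-07) on the log2 scale after doxorubicin and peroxide in that order, or by 8.04 and 6.85 with voom on estimated reads. Its mean vehicle levels were under the floor. Like Igf2, H19 passed the filter through its treated libraries alone, so its calls are a description, also in the list counts that follow. Of the 7 genes listed for the Igf2 locus, its imprinting and the binding of its mRNA, 6 were tested. After doxorubicin 4 of the 6 rose and 1 fell, where 22.1% of all tested genes rose and 27.8% fell. After peroxide 2 rose and 3 fell, where 27.3% of all tested genes rose and 23.4% fell. Ctcf, which encodes the factor that insulates Igf2 from its enhancers, fell by 0.64 ± 0.10 after doxorubicin (adjusted p = 0.000255) and by 0.63 ± 0.10 after peroxide (adjusted p = 0.000248). Igf2bp2, an mRNA-binding protein gene, rose by 0.56 ± 0.11 after doxorubicin (adjusted p = 0.00108) and by 0.65 ± 0.11 after peroxide (adjusted p = 0.000375). Its relative Igf2bp3 was at 70.4 ± 29.4 CPM in the peroxide group and 139.5 ± 9.16 CPM in its vehicle group, and fell by 1.08 ± 0.32 (adjusted p = 0.0145), or by 0.67 without peroxide replicate 2. After doxorubicin Igf2bp3 was at 85.0 ± 7.34 CPM, against 93.5 ± 30.6 CPM in its vehicle group, which did not pass the test (adjusted p = 0.852).

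Of the receptor genes, Igf2r rose after both treatments, and Igf1r after doxorubicin. Igf1r (ENSMUSG00000005533, chromosome 7, 67952827 to 68233668, plus strand) was at 64.7, 57.0 and 59.2 CPM in the doxorubicin libraries, against 43.6, 37.7 and 38.9 CPM in their vehicle libraries. The peroxide libraries were at 54.3, 37.5 and 52.8 CPM, against 45.5, 44.7 and 43.5 CPM in their vehicle libraries. The doxorubicin group lay wholly above its vehicle group, whereas peroxide replicate 2 lay below all its vehicle libraries and the other peroxide libraries above them. Igf1r rose by 0.58 ± 0.13 after doxorubicin (adjusted p = 0.00278), a ratio of mean CPM of 1.50. After peroxide the difference was 0.09 with a 95% interval of -0.18 to 0.37 (adjusted p = 0.568). Peroxide replicate 2 is 1 of the libraries that stood apart, and without it the peroxide difference was 0.26 (adjusted p = 0.0241). The difference between the effects was 0.49 ± 0.18, just outside the threshold (adjusted p = 0.0545). It passed in 8 of 23 alternative settings, and without peroxide replicate 2 it was 0.32 (adjusted p = 0.0479).

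Igf2r (ENSMUSG00000023830, chromosome 17, 12682406 to 12769664, minus strand) had 117, 125 and 114 CPM in the doxorubicin libraries, against 63.7, 72.4 and 71.8 CPM in their vehicle libraries. It had 133, 126 and 129.9 CPM in the peroxide libraries, against 71.8, 66.5 and 72.6 CPM in their vehicle libraries. Libraries of a group were close together and treated and vehicle groups were far apart, and Igf2r had the smallest standard error of the 9 tested genes. It rose by 0.77 ± 0.07 after doxorubicin (adjusted p = 5.23e-06) and by 0.87 ± 0.07 after peroxide (adjusted p = 1.75e-06). The ratios of mean CPM were 1.71 and 1.84 in that order, and the difference between the effects was -0.10 with a 95% interval of -0.32 to 0.12 (adjusted p = 0.436). The antisense gene Airn overlaps Igf2r but shares no exon bases with it (0 bases), and was at 0.381 to 2.57 CPM. Among the 10 genes listed as partners of these receptors and of the binding proteins at the membrane, 8 were tested. After doxorubicin 6 of the 8 rose and 0 fell, where 22.1% of all tested genes rose and 27.8% fell. After peroxide 4 rose and 1 fell, where 27.3% of all tested genes rose and 23.4% fell. Lrp1, an endocytic receptor that binds IGFBP3, rose by 0.80 ± 0.10 after doxorubicin (adjusted p = 4.68e-05) and by 0.50 ± 0.10 after peroxide (adjusted p = 0.00122). Itgb3, an integrin subunit, was at 27.6 ± 1.97 CPM in the peroxide group and 11.1 ± 0.951 CPM in its vehicle group, and rose by 1.24 ± 0.09 (adjusted p = 1.14e-06). After doxorubicin Itgb3 was at 15.5 ± 0.932 CPM, against 17.0 ± 0.889 CPM in its vehicle group (adjusted p = 0.290), and the effects differed by -1.37 ± 0.13 (adjusted p = 8.50e-05).

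Igfbp3 (ENSMUSG00000020427, chromosome 11, 7206086 to 7213923, minus strand) encodes the main carrier of IGFs in blood. It was at 10.5, 9.68 and 9.84 CPM in the doxorubicin libraries, against 0.839, 0.456 and 0.513 CPM in their vehicle libraries. It was at 3.38, 4.48 and 2.99 CPM in the peroxide libraries, against 0.739, 0.619 and 0.925 CPM in their vehicle libraries. All vehicle libraries were under 1 CPM, and the doxorubicin libraries were all above the peroxide libraries. Since only treated libraries carried Igfbp3 past the filter, its calls are a description. The ratio of mean CPM was 16.6 after doxorubicin and 4.75 after peroxide. On the log2 scale Igfbp3 rose by 2.79 ± 0.14 (adjusted p = 5.33e-08) after doxorubicin and by 1.38 ± 0.14 (adjusted p = 1.28e-05) after peroxide, and these effects differed by 1.41 ± 0.20 (adjusted p = 0.000722). The rise after peroxide was 2.11 with 0.1 CPM added in place of 1, and 2.25 with voom on estimated reads. The vehicle groups did not separate, with a difference of -0.14 between day 7 and day 6 and a 95% interval of -0.46 to 0.17.

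Igfbp5 (ENSMUSG00000026185, chromosome 1, 72857932 to 72874884, minus strand) encodes a binding protein that also attaches to the extracellular matrix, and its promoter is the first of the sequences printed above. In the peroxide libraries it was at 140.0, 157 and 154 CPM, against 10.7, 6.77 and 10.1 CPM in their vehicle libraries. In the doxorubicin libraries it was at 78.6, 109 and 79.8 CPM, against 73.7, 58.8 and 66.9 CPM in their vehicle libraries. The peroxide vehicle group was the low one: the doxorubicin vehicle group already held levels near those of the doxorubicin group, and neither treated group overlapped its vehicle group. Igfbp5 rose by 3.91 ± 0.17 after peroxide (adjusted p = 1.73e-08), a ratio of mean CPM of 16.4. After doxorubicin the difference was 0.40 with a 95% interval of 0.04 to 0.77 and missed the threshold (adjusted p = 0.0624); 26.1% of all tested genes had doxorubicin libraries wholly above those of the vehicle. That call was made in 5 of 24 alternative settings, among them both other scalings of the libraries, and without doxorubicin replicate 2 the difference was 0.25 (adjusted p = 0.237). The effects differed by -3.51 ± 0.23 (adjusted p = 7.27e-06). The day 7 vehicle group exceeded the day 6 vehicle group by 2.74 ± 0.17 (adjusted p = 1.73e-06), a ratio of mean CPM of 7.24, and these vehicle libraries enter the comparison of the effects.

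Igfbp4 (ENSMUSG00000017493, chromosome 11, 99041244 to 99054392, plus strand), whose product is a carrier that pappalysin cuts, moved in opposite directions. It was at 6.66, 8.88 and 7.29 CPM in the doxorubicin libraries, against 18.5, 13.8 and 9.95 CPM in their vehicle libraries. It was at 9.29, 9.51 and 7.62 CPM in the peroxide libraries, against 4.26, 5.48 and 6.13 CPM in their vehicle libraries. The treated groups overlapped each other, whereas the vehicle groups lay on either side of them. Igfbp4 fell by 0.78 ± 0.20 after doxorubicin (adjusted p = 0.00787) and rose by 0.65 ± 0.20 after peroxide (adjusted p = 0.0196), and the effects differed by -1.42 ± 0.28 (adjusted p = 0.00435). The day 7 vehicle group exceeded the day 6 vehicle group by 1.23 ± 0.20 (adjusted p = 0.00107), a ratio of mean CPM of 2.66. The rise after peroxide was not called without peroxide replicate 1 (adjusted p = 0.0574), peroxide replicate 2 (adjusted p = 0.0550) or peroxide vehicle replicate 1 (adjusted p = 0.0793).

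The vehicle groups that differed in Igfbp4 and Igfbp5 also differed in other genes. All 9 listed proliferation genes were lower in the day 7 than in the day 6 vehicle group, as were 12.9% of all tested genes. The median difference over the 9 genes was -0.70. Mki67, a marker of cycling cells, was at 76.6 ± 5.05 CPM on day 7 and 125 ± 6.96 CPM on day 6 (SD, n = 3). The fibroblast marker Dcn was at 166 ± 14.9 CPM in the day 7 vehicle group and 17.6 ± 3.06 CPM in the day 6 vehicle group, a difference of 3.18 ± 0.11 (adjusted p = 1.26e-07). Most fibroblast markers did not differ so: of the 9, 3 were higher on day 7, 0 were lower and 6 were not called. Their median difference was 0.13, and 15.1% of all tested genes were higher on day 7. The part of culture density, harvest day or batch in the Igfbp4 and Igfbp5 differences was not tested. After doxorubicin 7 of the 9 proliferation genes fell, and after peroxide all 9 fell, where 27.8% and 23.4% of all tested genes fell in that order.

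**Figure D2:**
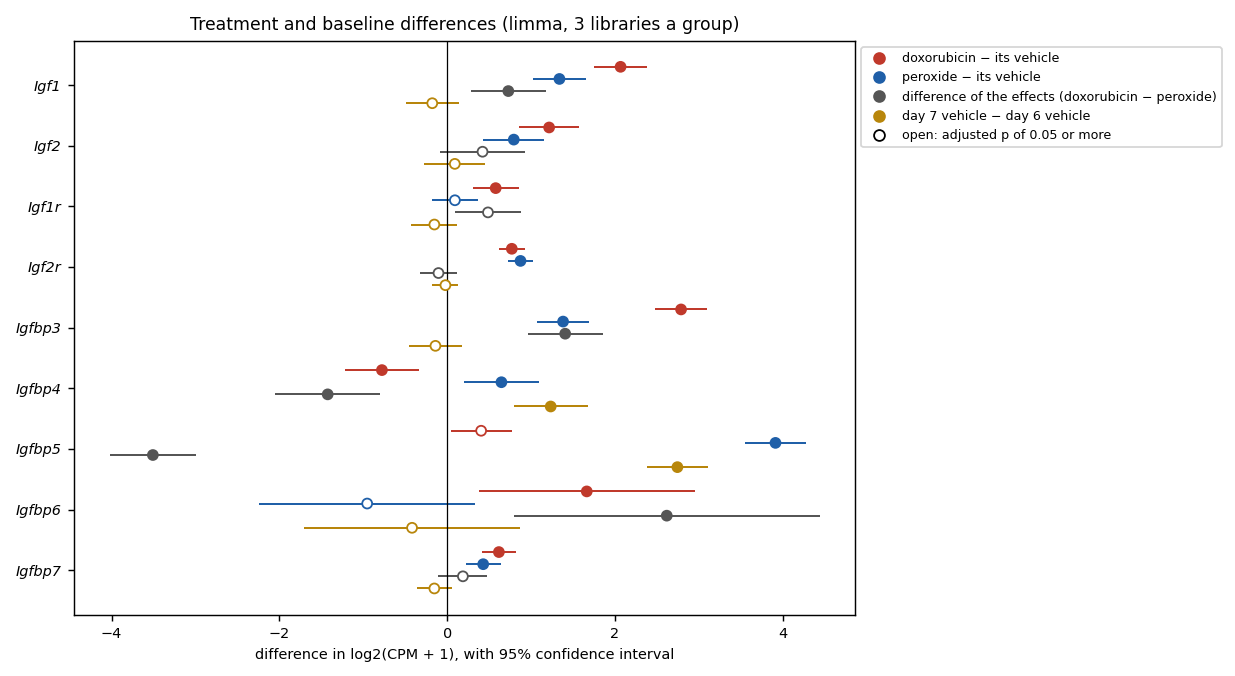
Differences in log2(CPM + 1) with 95% confidence intervals from limma for the 9 tested genes; filled points have an adjusted p below 0.05 and open points do not. Igfbp5 shows a peroxide effect of 3.91, a difference between day 7 and day 6 vehicle of 2.74 and a doxorubicin effect of 0.40, and Igfbp6 has the widest intervals.

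Igfbp6 (ENSMUSG00000023046, chromosome 15, 102144362 to 102149511, plus strand) encodes a carrier that prefers IGF2. It was at 39.6, 216 and 177 CPM in the doxorubicin libraries, against 45.6, 42.8 and 23.2 CPM in their vehicle libraries. It was at 23.9, 21.5 and 28.1 CPM in the peroxide libraries, against 97.4, 36.0 and 31.4 CPM in their vehicle libraries. Doxorubicin replicates 2 and 3 were high and replicate 1 lay within the range of the vehicle group; peroxide vehicle replicate 1 was high within its own group. Doxorubicin replicate 1 is 1 of the libraries that stood apart, and on the second principal component it scored 0.0133, against -39.9 and -29.5 for replicates 2 and 3, while peroxide vehicle replicate 1 scored -33.6, against -18.9 and -7.06 for the others of its group. The part of that component in the Igfbp6 values was not tested. Igfbp6 rose by 1.66 ± 0.59 after doxorubicin (adjusted p = 0.0348), with overlapping groups, a ratio of mean CPM of 3.88. The call was kept in 17 of 24 alternative settings, and was lost without doxorubicin replicate 2 (1.21, adjusted p = 0.138), doxorubicin replicate 3 (1.35, adjusted p = 0.122), doxorubicin vehicle replicate 2 (1.79, adjusted p = 0.0562) or doxorubicin vehicle replicate 3 (1.36, adjusted p = 0.118). Without replicate 1 of the doxorubicin group the rise was 2.42 ± 0.43 (adjusted p = 0.000964). After peroxide the difference was -0.95 with a 95% interval of -2.24 to 0.33 (adjusted p = 0.198), and it was -0.45 without peroxide vehicle replicate 1 (adjusted p = 0.568). The peroxide libraries lay wholly below their vehicle libraries, as they did for 29.3% of all tested genes. The effects differed by 2.62 ± 0.83 (adjusted p = 0.0331), a call kept in 15 of 23 alternative settings.

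Igfbp7 (ENSMUSG00000036256, chromosome 5, 77349240 to 77408041, minus strand) encodes a low-affinity IGF binder that is known as a secreted product of senescent cells. It was at 81.6, 71.7 and 75.8 CPM in the doxorubicin libraries, against 50.8, 47.5 and 49.9 CPM in their vehicle libraries. It was at 76.0, 80.6 and 67.4 CPM in the peroxide libraries, against 51.0, 52.6 and 62.2 CPM in their vehicle libraries. Both treated groups lay above their vehicle groups, with the narrowest gap between peroxide replicate 3 and peroxide vehicle replicate 3. Igfbp7 rose by 0.62 ± 0.09 after doxorubicin (adjusted p = 0.000260) and by 0.43 ± 0.09 after peroxide (adjusted p = 0.00277). The difference between the effects was 0.19 with a 95% interval of -0.10 to 0.48 (adjusted p = 0.290). Polr2b, on the other strand, overlaps 7.03% of the Igfbp7 exon bases and was at 87.3 to 128 CPM, and whether the counting used strand is not given in the sources used here.

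Igfbp2 (ENSMUSG00000039323, chromosome 1, 72824503 to 72852474, plus strand), which encodes a carrier abundant in fetal tissue and in blood and is the neighbour of Igfbp5, was under 1 CPM in every library. It was at 0.419, 0.691 and 0.425 CPM in the doxorubicin libraries, against 0.148, 0.0456 and 0 CPM in their vehicle libraries. It was at 0.0902, 0.154 and 0.0935 CPM in the peroxide libraries, against 0.171, 0.143 and 0.0578 CPM in their vehicle libraries. The doxorubicin libraries held 9, 26 and 15 reads of it, and no other library more than 5. It was not tested in the chosen fit, and with no filter on low values the differences were 0.50 after doxorubicin (adjusted p = 0.000623) and -0.01 after peroxide (adjusted p = 1).

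Levels of different genes were compared as CPM per kb of merged exons. In the doxorubicin group Igfbp6 averaged 129.8 ± 83.4 and Igfbp7 63.2 ± 4.12 CPM per kb (SD, n = 3), and these overlapped. Igfbp5 at 14.8 ± 2.82 and Igf2r at 12.8 ± 0.627 CPM per kb came next and overlapped as well, followed by Igf1r at 3.59, Igfbp3 at 3.20, Igf1 at 2.53 and Igfbp4 at 1.72 CPM per kb, which did not overlap in this order. In its vehicle group Igfbp7 at 40.9 ± 1.39 and Igfbp6 at 33.5 ± 11.0 CPM per kb led and overlapped, and Igfbp3 stood at 0.192 CPM per kb, below Igf1 at 0.525 and Igfbp4 at 3.19. In the peroxide group Igfbp7 led alone at 61.8 ± 5.56 CPM per kb, and Igfbp5 at 25.0 ± 1.52 and Igfbp6 at 22.0 ± 3.01 CPM per kb overlapped. In its vehicle group Igfbp6 at 49.4 ± 33.2 and Igfbp7 at 45.7 ± 4.998 CPM per kb overlapped, and Igfbp5 ranked below both receptors at 1.53 ± 0.353 CPM per kb. Igf2 and Igfbp2 were the last of the 10 genes in all 4 groups. Per length, the receptor transcript Igf2r thus exceeded Igf1r in every group, at 12.8 against 3.59 CPM per kb in the doxorubicin group and 13.9 against 2.87 CPM per kb in the peroxide group. The order is a description of averages.

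The summed level of the 6 binding protein genes was 121, 277 and 241 CPM per kb in the doxorubicin libraries, against 99.9, 90.9 and 75.7 in their vehicle libraries. It was 111, 116 and 109 CPM per kb in the peroxide libraries, against 133, 78.5 and 83.1 in their vehicle libraries. The sum was thus higher in the doxorubicin libraries, whereas the peroxide libraries lay within the range of their vehicle libraries. The top of that range was peroxide vehicle replicate 1 alone, and the other peroxide vehicle libraries lay below all peroxide libraries. The makeup differed after peroxide: Igfbp5 gave 21.0, 22.6 and 23.4% of the sum in the peroxide libraries, against 1.34, 1.43 and 2.03% in their vehicle libraries. In the doxorubicin libraries Igfbp5 gave 10.8, 6.52 and 5.52%, against 12.3, 10.8 and 14.7% in their vehicle libraries. The peroxide vehicle group thus had the lowest Igfbp5 share of the 4 groups. Igfbp6 gave 19.3, 16.7 and 23.1% in the peroxide libraries, against 65.9, 41.2 and 34.0% in their vehicle libraries. In the doxorubicin libraries Igfbp6 gave 29.3, 70.1 and 66.3%, against 41.1, 42.3 and 27.5% in their vehicle libraries. Igfbp7 held most of the rest, and Igfbp3, despite its rise, gave at most 2.77% of the sum in any library.

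**Figure D3:**
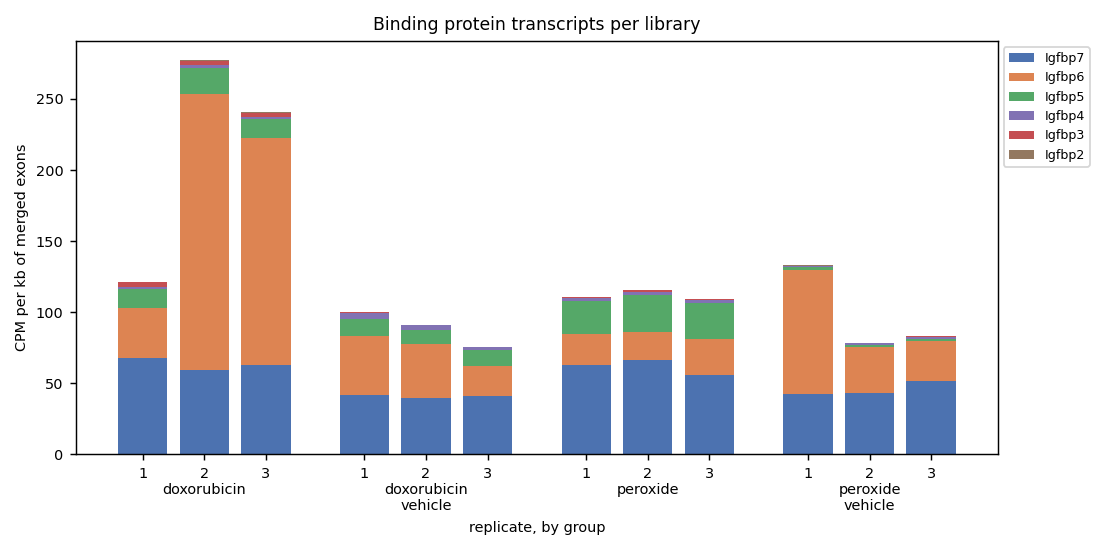
Summed level of the 6 binding protein genes in each library, in CPM per kb of merged exons, stacked by gene. Doxorubicin replicates 2 and 3 reach 277 and 241 through Igfbp6, and the Igfbp5 band is broad in the peroxide libraries (21.0 to 23.4%) and thin in their vehicle libraries (1.34 to 2.03%).

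Other genes of the system were read from lists chosen for their function. Of 9 listed genes for the proteases that cut binding proteins and their inhibitors, 8 were tested. After doxorubicin 2 rose and 1 fell, and after peroxide 5 rose and 1 fell. Over all tested genes 22.1% rose and 27.8% fell after doxorubicin, and 27.3% rose and 23.4% fell after peroxide. Pappa, which encodes pappalysin, the protease that releases IGF from IGFBP4, was at 82.2 ± 9.42 CPM in the doxorubicin group and 18.0 ± 2.25 CPM in its vehicle group, and at 148 ± 7.63 CPM in the peroxide group and 40.8 ± 2.42 CPM in its vehicle group (SD, n = 3). Pappa rose by 2.13 ± 0.10 after doxorubicin (adjusted p = 3.51e-08) and by 1.84 ± 0.10 after peroxide (adjusted p = 1.24e-07), and unlike Igfbp4 and Igfbp5 it was lower in the day 7 than in the day 6 vehicle group, by -1.14 ± 0.10 (adjusted p = 2.57e-05). Adamts1, which encodes a secreted protease of the ADAMTS family, rose by 1.92 ± 0.08 after doxorubicin (adjusted p = 1.59e-08) and by 1.21 ± 0.08 after peroxide (adjusted p = 5.88e-07). Htra3, a serine protease gene, fell by 0.63 ± 0.10 after doxorubicin (adjusted p = 0.000439) and rose by 0.40 ± 0.10 after peroxide (adjusted p = 0.00734). Like Igfbp4, Htra3 was higher in the day 7 vehicle group, by 1.08 ± 0.10 (adjusted p = 3.29e-05). The median difference over the 8 genes was 0.22 after doxorubicin and 0.44 after peroxide.

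Of the 28 genes listed for insulin and IGF receptor signalling, 27 were tested, and most did not pass the test: 7 rose and 3 fell after doxorubicin, and 8 rose and 3 fell after peroxide. The medians were 0.16 and 0.12, with shares called below those of all tested genes (49.9% after doxorubicin and 50.7% after peroxide). Grb14, an adaptor that inhibits the insulin receptor, was at 5.05 ± 0.282 CPM in the doxorubicin group and 0.642 ± 0.292 CPM in its vehicle group, and at 4.75 ± 0.441 CPM in the peroxide group and 0.686 ± 0.246 CPM in its vehicle group (SD, n = 3). It rose by 1.90 ± 0.16 (adjusted p = 2.20e-06) after doxorubicin and by 1.78 ± 0.16 (adjusted p = 3.32e-06) after peroxide, or by 3.07 and 2.78 with voom on estimated reads. Grb14 passed the filter through its treated libraries alone, so these calls are a description. Irs1, a docking protein of both receptors, rose by 0.74 ± 0.13 after doxorubicin (adjusted p = 0.000644) and by 0.54 ± 0.13 after peroxide (adjusted p = 0.00435). Pik3r1, the regulatory subunit of PI 3-kinase, rose by 0.51 ± 0.11 after doxorubicin (adjusted p = 0.00278) and by 0.95 ± 0.11 after peroxide (adjusted p = 3.35e-05). Foxo3, a transcription factor that insulin and IGF signalling holds out of the nucleus, rose by 0.37 ± 0.08 after doxorubicin (adjusted p = 0.00356) and by 0.84 ± 0.08 after peroxide (adjusted p = 9.65e-06). Its relative Foxo1 fell by 0.70 ± 0.15 after doxorubicin (adjusted p = 0.00225) and differed by -0.30 after peroxide (adjusted p = 0.111).

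The CCN genes encode matrix-associated proteins once grouped with the binding proteins as relatives. Of 6 listed, 5 were tested. All 5 rose after doxorubicin, and 2 rose after peroxide, where 22.1% and 27.3% of all tested genes rose in that order. Ccn2, formerly connective tissue growth factor, was at 14.7 ± 1.24 CPM in the doxorubicin group and 2.94 ± 0.253 CPM in its vehicle group, and at 10.4 ± 0.498 CPM in the peroxide group and 7.94 ± 0.647 CPM in its vehicle group (SD, n = 3). The effects on Ccn2 differed by 1.65 ± 0.15 (adjusted p = 4.44e-05), and the vehicle groups differed by -1.18 ± 0.10 between day 7 and day 6 (adjusted p = 2.24e-05). The call for Ccn2 after peroxide (0.35 ± 0.10, adjusted p = 0.0166) was kept in 21 of 24 alternative settings. Ccn3 rose by 3.31 ± 0.33 after doxorubicin (adjusted p = 1.02e-05) and by 2.60 ± 0.33 after peroxide (adjusted p = 5.86e-05). Ccn5 rose by 2.07 ± 0.52 after doxorubicin (adjusted p = 0.00673) and differed by -0.50 after peroxide (adjusted p = 0.446). Of 6 genes listed for other carriers and endocrine inputs, 2 were tested, Ghr and Igfals. Ghr, the growth hormone receptor, rose by 0.37 ± 0.09 after doxorubicin (adjusted p = 0.00618) and by 1.11 ± 0.09 after peroxide (adjusted p = 2.28e-06), and the effects differed by -0.73 ± 0.13 (adjusted p = 0.00233). Ghr was at 54.9 ± 1.33 CPM in the doxorubicin group and 42.2 ± 0.360 CPM in its vehicle group, and at 58.4 ± 7.17 CPM in the peroxide group and 26.5 ± 2.27 CPM in its vehicle group (SD, n = 3). The day 7 vehicle group exceeded the day 6 vehicle group by 0.65 ± 0.09 (adjusted p = 0.000440). Igfals, the acid-labile subunit of the circulating IGF complex, was at 1.52 ± 0.416 CPM in the doxorubicin group and 0.444 ± 0.251 CPM in its vehicle group and rose by 0.80 ± 0.25 (adjusted p = 0.0218), a call kept in 18 of 23 alternative settings. Like Grb14, Igfals passed the filter through its treated libraries alone, so its call is a description. Igfbp1 and Ins1 were listed at 0 in all 12 libraries.

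**Figure D4:**
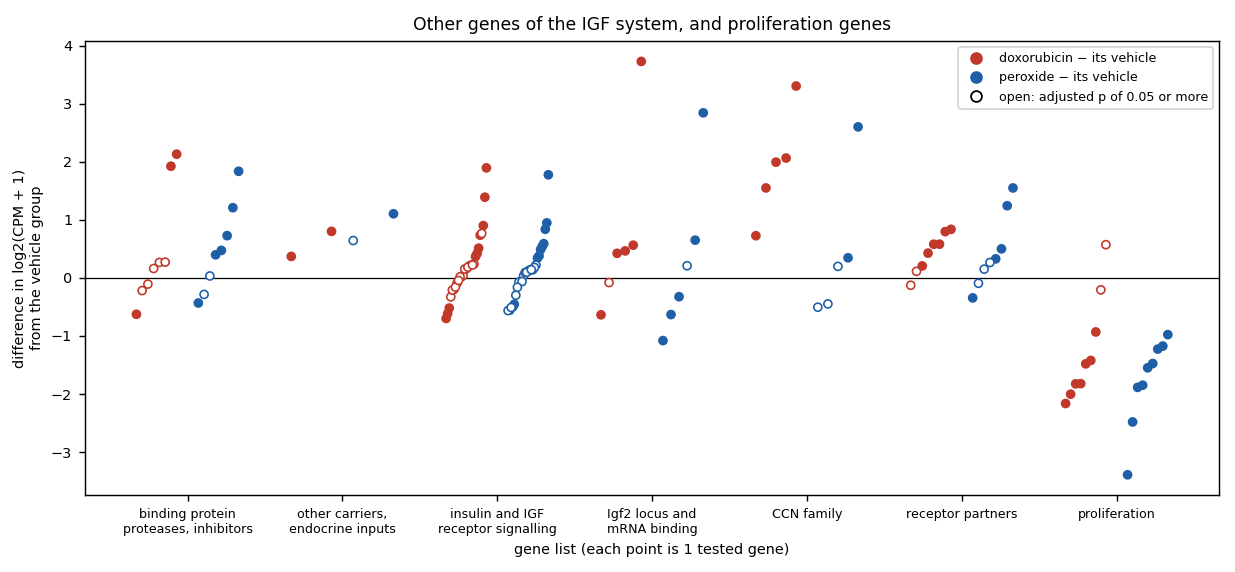
Differences in log2(CPM + 1) from the vehicle group for each tested gene of the 7 lists, with doxorubicin left of peroxide in each list; filled points have an adjusted p below 0.05. Pappa (2.13 and 1.84) and H19 (3.73 and 2.84) top their lists after both treatments, and no proliferation gene rose (0 of 9 in either comparison).

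The genes whose levels were most like each member across the 12 libraries were found by Pearson's r of log2(CPM + 1), among 9279 tested genes with a mean of at least 5 CPM. For Igf1 they were Htr2a and Il1rl1 (both r = 0.989), and for Igf2r Sbsn (r = 0.991) and Inhbb (r = 0.986). For Igfbp3 they were the interferon-inducible genes Oas2 and Sp110 (both r = 0.994). For Igfbp5 they were Cyp4v3 (r = 0.984) and Tcp11l2 (r = 0.982), and for Igfbp7 Tspan5 and Tmem43 (both r = 0.971). Igfbp6, with its uneven replicates, was most like Pebp1 (r = 0.987) and Nfkbib (r = 0.984). Likeness was weaker for Igf1r, with Cxcl1 (r = 0.940) and Lamb1 (r = 0.939), and for Igfbp4, with Phf8 (r = 0.907) and Angptl6 (r = 0.901). The nearest genes to the scarce Igf2 were Adam15 (r = 0.979) and Rab5c (r = 0.969). The points share the 4 groups and the depth of each library, so these values describe patterns in 12 libraries, chosen as the highest of many.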

How the data were processed

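The authors deposited CPM values, in which the genes of a library sum to 1000000. The submitters' processing notes list DRAGEN, bcl2fastq and mm10, with no versions. The counting method is not given in the sources used here, nor are the strand setting and annotation. Lines that repeated a gene identifier (287 of 55774, identical in value) were dropped, leaving 55487 genes. Each library was mapped to its group by its title.

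Depth was estimated from the CPM of 1 read. Of values up to 20 reads, 74.6 to 79.8% came within 0.001 read of a whole number, so the counts were estimates and no count model was run; voom on the estimated reads was an alternative. The floor of 3 reads covers counting error only. A model of the 4 groups was fitted to log2(CPM + 1) with limma 3.58.1 (R 4.3.3) and an intensity trend, with 8 residual degrees of freedom, after testing on simulated data. Tests were two-sided. Fold changes of scarce genes are understated on this scale. The comparisons were each treatment against its vehicle, the difference of these effects, and day 7 vehicle against day 6 vehicle. Tables and figures used Python 3.11.15.

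Gene positions and merged exon lengths came from GENCODE M21 on mm10, and sequences before starts from RefSeq, which matched all 10 genes at 14 starts. The members and lists were chosen with earlier results of these data known. All 10 members were named, with up to 4 genes of each of 7 lists by smallest adjusted p in each comparison, and 2 genes by likeness to each member. Genes of 6 marker lists described the cells. In all, 24 alternative settings were tried, of which 12 left out 1 library each.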

Additional observations from a re-analysis of the deposited data

Results flagged for a closer look

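For 5 genes of the IGF system the doxorubicin effect and the peroxide effect differed by limma's test of the difference (adjusted over all 13280 genes), as they did for 33.6% of all tested genes. The doxorubicin effect minus the peroxide effect was 0.73 for Igf1, 1.41 for Igfbp3, -1.42 for Igfbp4, -3.51 for Igfbp5 and 2.62 for Igfbp6 on the log2(CPM + 1) scale. Igf1 and Igfbp3 were higher than in the vehicle group after both treatments, and the difference was larger after doxorubicin. Their vehicle groups overlapped each other. Igfbp3 passed the filter through its treated libraries alone, so its call is a description. What set the size of these differences was not tested. The Igf1 call was lost without the 3 libraries that stood apart (adjusted p = 0.0786) and without doxorubicin replicate 3 (adjusted p = 0.0535). For Igfbp4 and Igfbp5 the vehicle groups differed as well, by 1.23 and 2.74 between day 7 and day 6. For Igfbp6 the libraries of the doxorubicin group ran from 39.6 to 216 CPM, and the call was kept in 15 of 23 alternative settings.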

How the results depend on the processing

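No called change of the 9 tested genes reversed its direction in any of the 24 alternative settings run. After doxorubicin 6 to 8 members rose and 1 fell in every setting, and after peroxide 6 to 8 rose and 0 fell. The count of members with a called positive difference between effects (3) was 1 to 4 when 1 library was left out. It was 1 without doxorubicin replicate 3. Over all tested genes that count (1796) was 1098 to 2232 when 1 library was left out. It was 1098 without doxorubicin replicate 3, 1142 without peroxide vehicle replicate 1, 1190 without doxorubicin vehicle replicate 3 and 2847 with array weights. The count of genes lower in the day 7 than the day 6 vehicle group (1718) was 2694 with array weights, whose fit stopped before full convergence. The causes were not tested. The replicate numbers are not a pairing in the labels, and deviations of same-numbered treated and vehicle libraries correlated at -0.311, 0.194 and -0.277 for doxorubicin and at 0.143, 0.0304 and -0.237 for peroxide. With a replicate block, 6 rather than 7 members rose after doxorubicin, because Igfbp6 lost its call (adjusted p = 0.0626, and 0.0620 for the difference between effects), and the difference between effects was called for Igf1r (adjusted p = 0.0417). The block changed no other call on a member. Using the longest coding transcript in place of merged exons exchanged Igf1 and Igfbp4 in the peroxide order and no other ranks. The settings for list genes were chosen after seeing the data; over them the 5 rising CCN genes after doxorubicin were 4 or 5, and H19 lost the difference between effects in 3 of 23 settings. Igf2 and Igfbp2 rest on few reads, so differences between their vehicle groups were not detectable at this depth.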

Other observations

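Among markers of other cell types, members of the same list moved in different directions. The adipocyte markers Pparg and Fabp4 fell after both treatments, whereas Adipoq, which encodes adiponectin, rose by 0.92 ± 0.21 after doxorubicin (limma, adjusted p = 0.00354) and by 1.06 ± 0.21 after peroxide (adjusted p = 0.00136). Of the 3 tested leukocyte markers, Lyz2, which encodes a lysozyme, rose by 2.01 ± 0.35 after doxorubicin (adjusted p = 0.000678) and by 2.35 ± 0.35 after peroxide (adjusted p = 0.000209), and Cd68 rose by 0.77 ± 0.18 and 0.68 ± 0.18 in that order (adjusted p = 0.00391 and 0.00791). The third, Csf1r, rose by 0.58 ± 0.14 after doxorubicin and fell by 0.57 ± 0.14 after peroxide (adjusted p = 0.00453 for each). The keratin gene Krt19 fell by 1.08 ± 0.32 after doxorubicin (adjusted p = 0.0162) and by 2.31 ± 0.32 after peroxide (adjusted p = 0.000127). Tek rose after both treatments. Of the 2 tested pericyte markers, Cspg4 fell by 1.90 ± 0.17 after peroxide (adjusted p = 4.85e-06) and did not pass the test after doxorubicin, and Rgs5 passed neither test. Pparg, an adipocyte regulator, was at 24.5 ± 2.11 CPM in the doxorubicin group and 52.0 ± 3.31 CPM in its vehicle group (limma, adjusted p = 2.05e-06), and at 28.5 ± 0.709 CPM in the peroxide group and 85.6 ± 6.41 CPM in its vehicle group (adjusted p = 1.09e-07; SD, n = 3). Tek, the angiopoietin receptor gene listed as an endothelial marker, was at 36.2 ± 6.17 CPM in the doxorubicin group and 13.6 ± 1.74 CPM in its vehicle group (adjusted p = 8.11e-05), and at 24.9 ± 2.96 CPM in the peroxide group and 7.34 ± 1.74 CPM in its vehicle group (adjusted p = 1.55e-05). Another endothelial marker, Cdh5, was at 0 CPM in the peroxide group and in both vehicle groups. Their part in the levels of the IGF genes was not tested.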
